A study of Homo sapiens with 8 samples.

Results

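The genes described here are 46 human genes of the families that set or remove methyl groups on histone lysines, with shared core subunits of their complexes. Some members, such as SETD3 and KMT2E, are included by family name and not for a histone methylating activity. The genes were listed by family and role, with earlier results of these data known. The list holds SETD7, 6 H3K4 methyltransferases, 4 core subunits of their complexes, 8 other SET and SMYD proteins, 6 H3K9 methyltransferases, 7 methyltransferases of H3K36, H3K79 and H4K20, and 14 demethylases. All 46 were among the 11644 genes of the day 2 table and the 14070 genes of the day 0 table, and 45 of them passed the filter on low counts and were tested at day 2. RNA was sequenced from H1, a human embryonic stem cell line, either wild type or labelled as a SETD7 knockout. Cells were taken at day 0 or at day 2 of hematopoietic differentiation induced with selected factors. Day 0 had 1 wild-type and 1 knockout library, and day 2 had 3 of each. The labels do not give how the knockout was made, whether it is 1 clone, or whether the day 2 replicates were separate cultures. Spread between libraries, which may be technical, is therefore all that the p-values weigh.

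Lysine methylation of histone tails is written by enzymes that mostly carry a SET domain and is removed by flavin-dependent amine oxidases or by JmjC oxygenases. Methylated H3K4 marks active promoters and enhancers, methylated H3K36 and H3K79 mark transcribed genes, and methylated H3K9 and H3K27 mark silent chromatin. In pluripotent cells many developmental promoters carry H3K4 and H3K27 methylation together, and the balance is redrawn as cells leave that state. SETD7 monomethylates H3K4 in vitro and also methylates many non-histone proteins.

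The promoters of 3 members are shown because they are the targeted gene and, among called members in the sequence table, the gene with the largest increase (SETD4) and the gene other than SETD7 with the largest decrease (KDM4A). Each line is the 250 bases upstream of the RefSeq gene start (GRCh38.p14), read 5′ to 3′ on the gene's strand, with CG dinucleotides in capitals. The SETD7 window is chr4:139556220-139556469 (minus strand), the SETD4 window is chr21:36060527-36060776 (minus strand) and the KDM4A window is chr1:43649899-43650148 (plus strand). The SETD7 and SETD4 windows lie inside the GENCODE gene spans given below, which begin further upstream than the RefSeq starts used here.
SETD7: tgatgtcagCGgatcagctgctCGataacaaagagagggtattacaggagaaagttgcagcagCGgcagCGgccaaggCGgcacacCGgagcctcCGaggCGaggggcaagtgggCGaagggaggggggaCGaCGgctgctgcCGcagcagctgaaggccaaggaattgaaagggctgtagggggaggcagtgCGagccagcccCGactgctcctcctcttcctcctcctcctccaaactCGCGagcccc
SETD4: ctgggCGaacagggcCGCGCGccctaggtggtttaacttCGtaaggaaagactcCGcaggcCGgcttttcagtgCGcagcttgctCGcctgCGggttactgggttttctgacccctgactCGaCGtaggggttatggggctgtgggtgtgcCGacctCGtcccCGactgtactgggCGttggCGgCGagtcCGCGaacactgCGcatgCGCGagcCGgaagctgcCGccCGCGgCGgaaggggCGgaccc
KDM4A: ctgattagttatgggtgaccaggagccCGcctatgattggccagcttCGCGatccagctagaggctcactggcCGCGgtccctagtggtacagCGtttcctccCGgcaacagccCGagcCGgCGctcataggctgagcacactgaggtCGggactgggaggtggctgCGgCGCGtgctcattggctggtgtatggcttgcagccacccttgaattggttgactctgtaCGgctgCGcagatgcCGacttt
The windows hold 16, 29 and 17 CG dinucleotides in that order. Of the 46 members 42 had a promoter in the RefSeq table, and ASH2L, DOT1L, DPY30 and SETD1B did not. The 42 windows held a median of 23 CG dinucleotides (range 2 to 50), against 21 for the tested genes and 11 for all promoters in the table. The motif GGGCGG, searched on both strands, was in 31 of the 42 (73.8%), in 68.9% of the tested genes and in 42.3% of all promoters. The motif CCAAT was in 12 of the 42 (28.6%), in 35.1% of tested genes and in 33.0% of all promoters. The motif TATAAA was in 0 of the 42, in 4.80% of tested genes and in 11.1% of all promoters.

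Day 2 totals ran from 27880068 to 39553614 counts per library. Between wild-type and knockout libraries 2668 of 11475 tested genes (23.3%) passed an adjusted p of 0.05 in edgeR's quasi-likelihood test, 1406 higher and 1262 lower in the knockout. With offsets for gene GC content and length that split was 1266 higher and 2029 lower. All 7 pluripotency markers were present at day 0, in FPKM (fragments scaled to transcript length and depth): POU5F1 stood at 149 and 113 in wild type and knockout, SOX2 at 157 and 113, LIN28A at 473 and 445, NANOG at 13.7 and 22.3 and DNMT3B at 318 and 527, and they summed to 1417 and 1538. At day 2 the mesoderm and primitive streak markers summed to 3935 to 3987 CPM (counts scaled to library size) in wild type and 4022 to 4066 in the knockout. Within this sum MIXL1, GSC and KDR passed as higher and T, HAND1 and FOXF1 as lower, while MESP1 and EOMES did not pass. The pluripotency markers (6 of 7 measured) summed to 2548 to 2582 CPM in wild type and 2695 to 2717 in the knockout. Of these, DNMT3B and TDGF1 passed as higher and NANOG as lower (log2 fold change -0.57), while POU5F1, LIN28A and SALL4 did not pass. Summed fibroblast markers (4 of 5 measured) were 356 to 373 CPM in wild type and 487 to 510 in the knockout. COL1A2, with means of 246 and 360 CPM, made up most of this rise. COL1A1 also passed as higher and LUM as lower, while THY1 did not pass. The endoderm marker measured, SOX17, was 147 to 153 CPM and 98.3 to 104. The amnion and trophoblast markers (3 of 4 measured) summed to 49.4 to 50.6 CPM and 38.1 to 39.7. Blood markers were represented at day 2 by RUNX1 alone, at 25.6 to 30.2 CPM in wild type and 25.3 to 25.7 in the knockout. The part of these shifts in the values below was not tested. In bulk libraries fewer cells of a type and less RNA per cell cannot be told apart.

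The first question was how far the rest of the methylation machinery differed when SETD7 was targeted. At day 2, 9 of the 45 tested members (20%) passed the threshold, against 23.3% of all tested genes. Of these 9, 5 were higher in the knockout (ASH2L, SETD4, SETD5, DOT1L and KDM1A; 12.3% of all genes were called higher) and 4 were lower (SETD7, KDM3B, KDM4A and KDM5B; 11.0% of all genes were called lower). Without SETD7, the targeted gene, 18.2% of 44 tested members passed, 5 higher and 3 lower. In 43 of the 45 the change was under 1.2-fold, SETD7 and SETDB2 being the exceptions. The median size of the log2 fold change was 0.066 over the members and 0.096 over all tested genes, so small changes were common. With sign, the median log2 fold change was -0.02 over the members and -0.0026 over all tested genes. Libraries of the genotypes did not overlap for 14 of 45 members (31.1%), against 37.7% of all tested genes. They were higher in the knockout for 8 of the 14 and lower for 6, SETD7 included, where 18.9% and 18.8% of all genes had such values. The replicate spread was small: the median coefficient of variation over the members was 3.09% in wild type and 4.47% in the knockout, beside 4.44% and 4.63% over all tested genes.

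**Figure D1:**
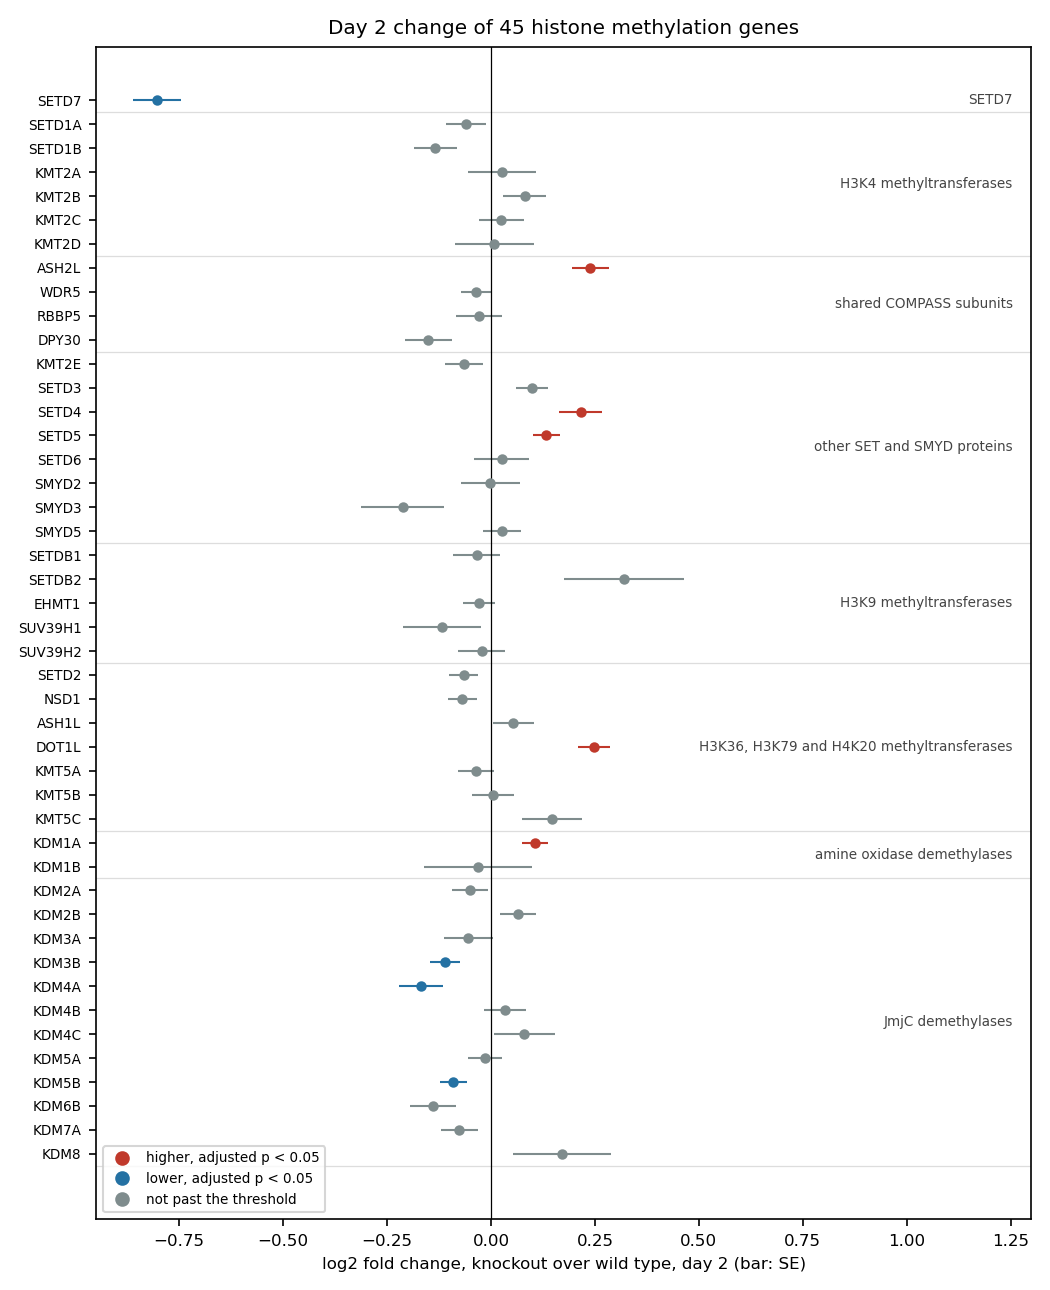
Log2 fold change of knockout over wild type at day 2 for the 45 tested members, grouped by role, with points for edgeR estimates and bars for their standard errors. SETD7 stands apart at -0.80, and the other 44 members lie between -0.21 and 0.32.

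SETD7 itself, on chr4:139495941-139606699 (GRCh38), checks the labels. Its level at day 2 was 54.8, 56.2 and 55.6 CPM in the wild-type libraries and 32.9, 28.9 and 33.7 CPM in the knockout libraries. The groups did not overlap, with means of 55.5 ± 0.710 and 31.8 ± 2.56 CPM (SD, n = 3 each). The transcript fell by 42.7% (log2 fold change -0.80, SE 0.06, edgeR adjusted p = 9.51e-13). It was still present at 57.3% of the wild-type level in libraries labelled knockout. Where in the gene these counts lie was not analysed here.

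Among the H3K4 methyltransferases, which are the catalytic subunits of the SETD1 and MLL complexes (COMPASS family), none of 6 passed the edgeR threshold, and 1 of the 6 had an unadjusted p under 0.05. DESeq2 and limma-voom also called 0 of the 6, while GC and length offsets called 2, SETD1A and SETD1B, both lower. Their log2 fold changes ran from -0.13 for SETD1B (edgeR adjusted p = 0.0554) to 0.08 for KMT2B (adjusted p = 0.285). KMT2D, a large enhancer H3K4 methyltransferase, had 319, 353 and 329 CPM in wild type and 380, 311 and 316 CPM in the knockout. Knockout replicate 1 was the highest of the 6 libraries and the other knockout libraries were the lowest.

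Of the 4 core subunits that the H3K4 methyltransferases share, ASH2L rose and the other 3 did not pass. ASH2L, needed for full activity of these enzymes, is on chr8:38105242-38144076. It had 73.8, 69.6 and 72.9 CPM in wild type and 86.8, 83.6 and 84.6 CPM in the knockout. Every knockout library lay above every wild-type library, a rise of 18.0% (log2 fold change 0.24, SE 0.04, edgeR adjusted p = 9.24e-05). Of its 5910 exonic bases, 338 also belong to STAR on the opposite strand. WDR5 and RBBP5, the scaffold subunits, had log2 fold changes of -0.04 and -0.03. DPY30, which binds ASH2L, had 47.9, 54.5 and 55.3 CPM in wild type and 45.2, 50.2 and 46.8 CPM in the knockout, so the groups overlapped (log2 fold change -0.15, edgeR adjusted p = 0.0530). It shares 1385 of its 2745 exonic bases with MEMO1 on the same strand, so its count is uncertain.

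In the group of other SET and SMYD proteins, SETD4 and SETD5 rose and 6 of 8 did not pass. SETD4, a SET protein on chr21:36034541-36079389, had 48.4, 47.9 and 45.5 CPM in wild type and 55.6, 52.0 and 57.0 CPM in the knockout. The groups were separate, with a rise of 16.1% (log2 fold change 0.22, SE 0.05, edgeR adjusted p = 0.00251). SETD5, a chromatin protein whose loss causes intellectual disability, is on chr3:9397615-9479240. It had 288, 303 and 290 CPM in wild type and 334, 319 and 314 CPM in the knockout. No libraries overlapped, and the rise was 9.67% (log2 fold change 0.13, SE 0.03, edgeR adjusted p = 0.00276). SETD3, the actin histidine methyltransferase, did not overlap between genotypes but missed the threshold (log2 fold change 0.10, edgeR adjusted p = 0.0633). SMYD3 had the lowest value of the group, at -0.21 with an SE of 0.10 (edgeR adjusted p = 0.124). KMT2E, a reader with no known methyltransferase activity, SETD6, which acts on the NF-kappaB subunit RelA, SMYD2, which acts on p53, and SMYD5 lay between -0.06 and 0.03.

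**Figure D2:**
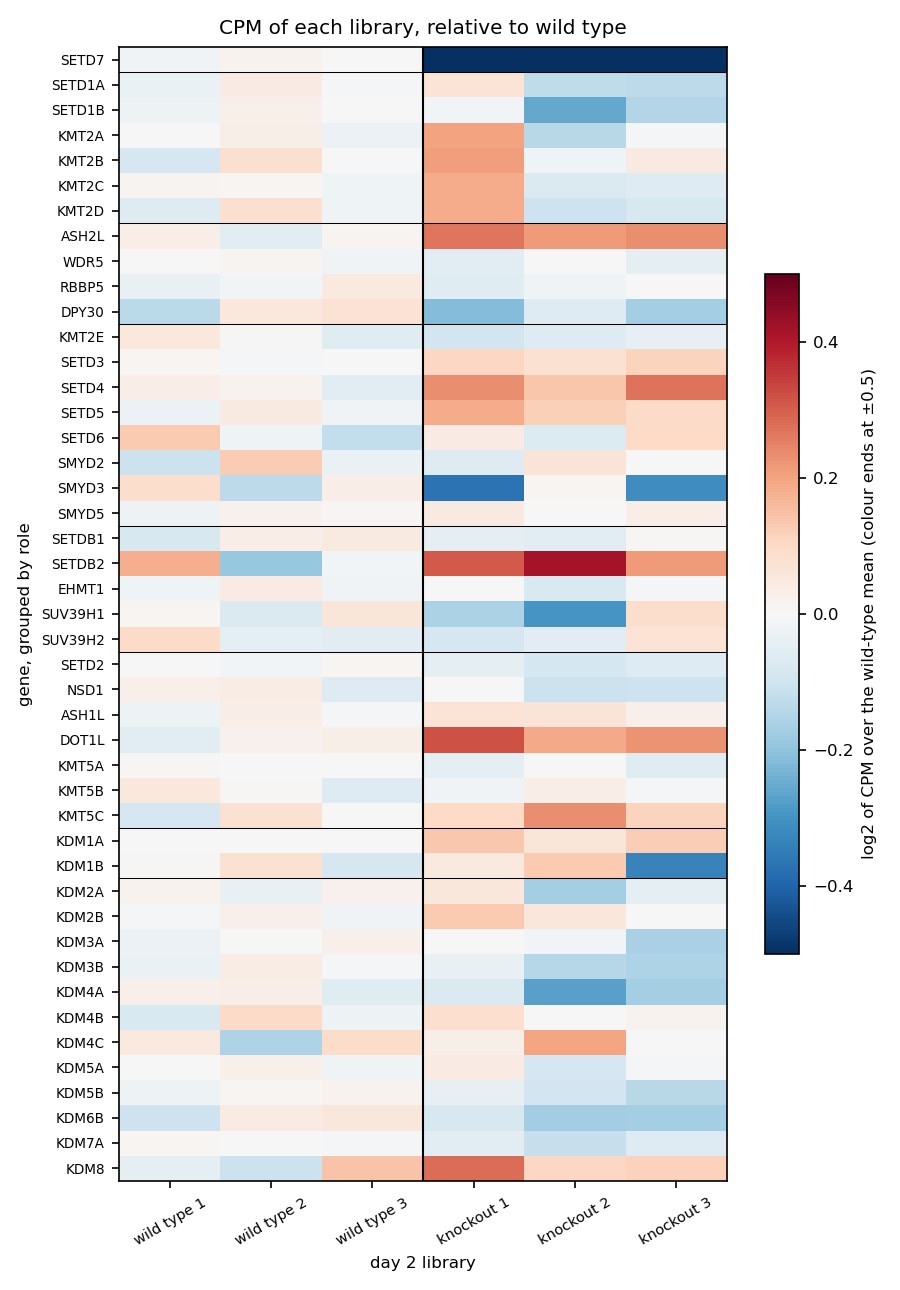
Day 2 values of the tested members in each of the 6 libraries, as log2 of CPM over the gene's wild-type mean (colour, ending at 0.5 in size), ordered by role. SETD7 separates the genotypes most strongly, and the knockout replicate 1 column is the highest of the 6 for 15 of 45 members.

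Of the H3K9 methyltransferases, which write the marks of silent chromatin, 5 of 6 were tested and 0 passed in edgeR, DESeq2 or limma-voom. In edgeR 23.3% of all tested genes passed. Of the 5, 1 had an unadjusted p under 0.05. GC and length offsets called 1, EHMT1, as lower (log2 fold change -0.11, edgeR adjusted p = 0.0108). SETDB2 had 5.35, 4.14 and 4.68 CPM in wild type and 5.84, 6.30 and 5.48 CPM in the knockout. The libraries did not overlap, but at these low counts the log2 fold change of 0.32 had an SE of 0.14 and an edgeR adjusted p of 0.106. SETDB1, which is recruited through TRIM28, the mono- and dimethylating enzyme EHMT1, and the heterochromatin enzymes SUV39H1 and SUV39H2 lay between -0.12 and -0.02. EHMT2, the partner of EHMT1, was not tested: its day 2 counts were 0, 0 and 0 in wild type and 2, 0 and 0 in the knockout. A count of 0 allows up to 0.108 CPM in the smallest library (wild-type replicate 1), for counting error only. The largest library, knockout replicate 1, held the 2 counts, so a limit for a count of 0 does not apply to it. At day 0 EHMT2 stood at 3.67 and 6.34 FPKM.

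Of the 7 methyltransferases of H3K36, H3K79 and H4K20, DOT1L rose and 6 did not pass. DOT1L, the H3K79 methyltransferase, is on chr19:2164149-2232578. It had 134, 141 and 142 CPM in wild type and 173, 159 and 163 CPM in the knockout. The groups were separate, with a rise of 18.7% (log2 fold change 0.25, SE 0.04, edgeR adjusted p = 8.52e-06). With GC content and length offsets its log2 fold change was 0.16 (adjusted p = 0.000102), below those of ASH2L (0.22) and SETD4 (0.19) in that fit. Of its 11272 exonic bases, 1293 also belong to opposite-strand genes (PLEKHJ1 and AC004490.1). SETD2, which trimethylates H3K36, was lower in all knockout libraries without passing (log2 fold change -0.07, edgeR adjusted p = 0.176). KMT5C, an H4K20 methyltransferase, was higher in all 3 without passing (0.15, adjusted p = 0.138). NSD1, ASH1L, KMT5A and KMT5B lay between -0.07 and 0.05.

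Among the demethylases, 1 of 2 amine oxidases rose, and 3 of 12 JmjC enzymes fell while none rose, where 12.3% of all tested genes were called higher and 11.0% lower. The difference between the classes was not tested. KDM1A, or LSD1, which removes H3K4 mono- and dimethylation within the CoREST complex, is on chr1:23019443-23083689. It had 398, 398 and 399 CPM in wild type and 437, 416 and 434 CPM in the knockout. The groups were separate, with a rise of 7.66% (log2 fold change 0.11, SE 0.03, edgeR adjusted p = 0.0103). Without knockout replicate 3 the edgeR adjusted p was 0.0662. With a replicate block combined with GC content and length offsets it was 0.0508. Its relative KDM1B did not pass (-0.03, SE 0.13).

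KDM4A, a demethylase of H3K9 and H3K36 on chr1:43650158-43705515, had 58.8, 58.9 and 55.4 CPM in wild type and 54.8, 47.8 and 51.2 CPM in the knockout. The groups did not overlap, although knockout replicate 1 came close to the lowest wild-type library. The level fell by 11.0% (log2 fold change -0.17, SE 0.05, edgeR adjusted p = 0.0198). Of its 5172 exonic bases, 2541 also belong to AL451062.3 or KDM4A-AS1, so the count is uncertain.

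KDM3B, an H3K9 demethylase on chr5:138352596-138437028, had 189, 198 and 193 CPM in wild type and 188, 175 and 174 CPM in the knockout. Its highest knockout library lay just under its lowest wild-type library, and the level fell by 7.38% (log2 fold change -0.11, SE 0.04, edgeR adjusted p = 0.0228). KDM5B, an H3K4 demethylase on chr1:202724495-202809470, had 267, 273 and 275 CPM in wild type and 264, 254 and 247 CPM in the knockout. It fell by 6.08% (log2 fold change -0.09, SE 0.03, edgeR adjusted p = 0.0428), again with knockout replicate 1 next to the wild-type range. With GC content and length offsets its log2 fold change was -0.16 (adjusted p = 1.59e-05). The calls of these 3 enzymes each depended on single libraries. Leaving out knockout replicate 3 gave adjusted p-values of 0.149 for KDM3B, 0.0520 for KDM4A and 0.251 for KDM5B. Leaving out wild-type replicate 2 gave 0.136, 0.0781 and 0.134. KDM4A also lost its call without wild-type replicate 1 (0.0646) or knockout replicate 2 (0.129), KDM3B without wild-type replicate 3 (0.0655) or knockout replicate 2 (0.0859), and KDM5B without wild-type replicate 3 (0.163) or knockout replicate 2 (0.0888). KDM5B also missed the threshold with DESeq2 (adjusted p = 0.0593), limma-voom (0.0502) and upper-quartile scaling (0.0984), and KDM3B with that scaling (0.0517). With replicate number as a block in the model the edgeR adjusted p was 0.0986 for KDM5B and 0.0570 for KDM3B. KDM7A, which acts on H3K9 and H3K27, was lower in all knockout libraries without passing (-0.08, edgeR adjusted p = 0.222). KDM6B, the H3K27 demethylase, had overlapping groups (-0.14, adjusted p = 0.0637), and the H3K36 demethylases KDM2A and KDM2B, the H3K9 demethylase KDM3A, and KDM4B, KDM4C, KDM5A and KDM8 lay between -0.05 and 0.17.

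**Figure D3:**
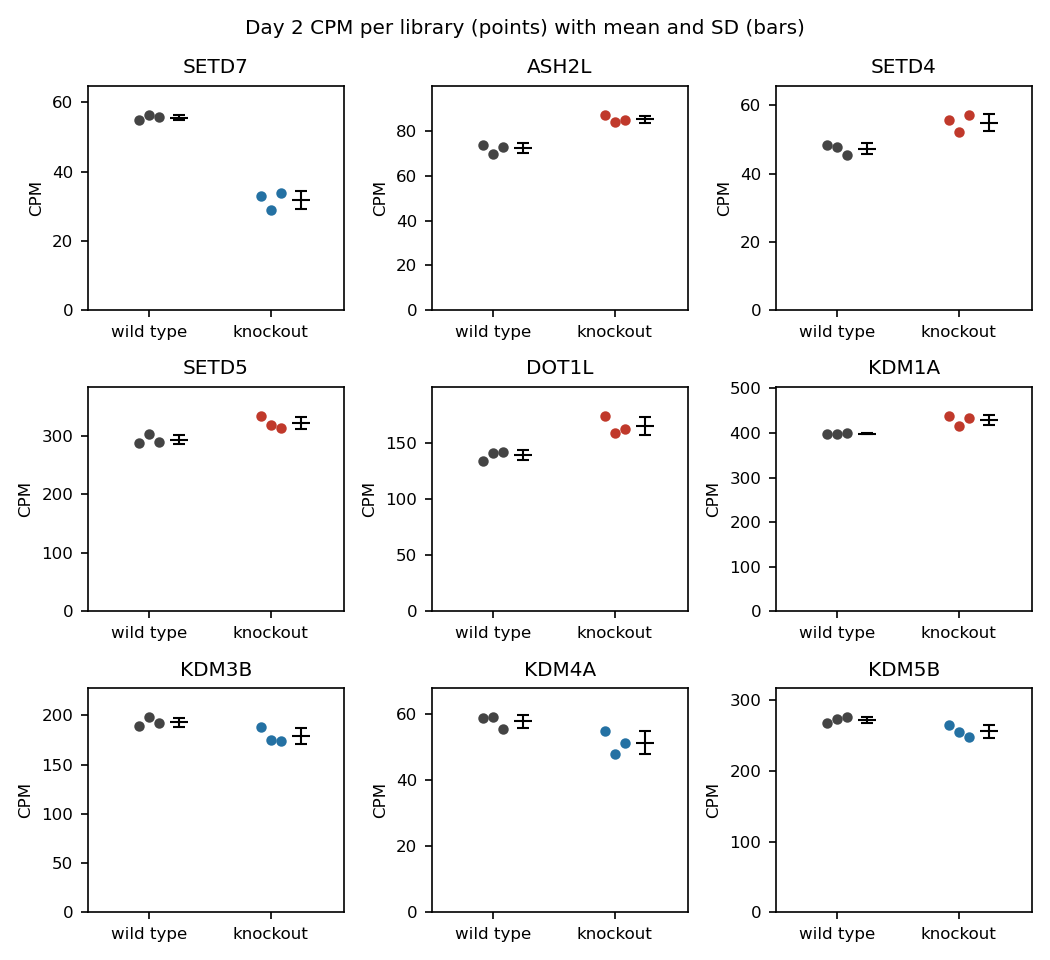
CPM at day 2 of the 9 members past the threshold, with 1 point per library (3 wild type, 3 knockout) and the mean and SD beside them. None of the 9 has overlapping groups, and SETD7 has the widest gap, from 54.8 down to 33.7 CPM.

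The number of members called lower, 4 with all 6 libraries, moved with single libraries and with the scaling. It was 1 without wild-type replicate 2 or without knockout replicate 3, 2 without wild-type replicate 3, and higher without knockout replicate 1. Knockout replicate 1 was the highest of the 6 libraries for 15 of 45 members (33.3%), against 20.4% of all tested genes, and the highest of the 3 knockout libraries for 26 (57.8%; 35.7% of all genes). The knockout SD exceeded the wild-type SD in 29 of 45 members (64.4%; 52.1% of all genes). On the log2 scale it lay above the mean of the other knockout libraries by 0.28 for KMT2D, 0.27 for KMT2A, 0.26 for KMT2C and 0.20 for both KMT2B and SETD1A. Of these 5 genes, KMT2A, KMT2C and KMT2D have 31305, 20114 and 20485 exonic bases, KMT2B has 10279 and SETD1A 6832. KMT2B, SETD1A and KMT2D have a GC content of 63.5%, 62.3% and 59.1%, and KMT2A and KMT2C of 46.9% and 45.02%. Over the members the medians were 7636.5 bases and 48.5%, against 5169 bases and 48.1% over all tested genes. Without that library 10 members were lower (22.2%; 9.84% of all genes were called lower in that fit), and with GC content and length offsets 11 were lower (24.4%; 17.7% of all genes). The settings shared 9 of these members: KDM2A, KDM3B, KDM4A, KDM5B, KDM6B, NSD1, SETD1A, SETD1B and SETD7. Without the library KMT2D was called as well, and with the offsets EHMT1 and SETD2 were. In the offset fit 28.8% of all genes were called in either direction (11.1% higher), and without the library 21.1% (11.2% higher). The part of GC content, length or that library in these values was not tested further. Upper-quartile scaling gave 6 members higher, with SETD3 added, and 2 lower, with 22.8% of all genes called. ASH2L, SETD4, SETD5 and DOT1L were called higher and SETD7 lower in all 17 fits, and 25 of 45 members were called in none. The matching shares over all genes are not given here, so these counts are not read as a trait of the members.

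The other genes of these pathways were counted from 4 lists. Of 13 other lysine methyltransferases 6 were tested, and of 17 other JmjC genes 13 were tested. None of them passed in edgeR, in DESeq2 or in limma-voom, and 0 had an unadjusted p under 0.05, while GC and length offsets called 3 of the JmjC genes. Of 28 tested complex partners and readers 5 passed (17.9%, beside 23.3% of all tested genes), 1 higher and 4 lower (12.3% and 11.0% of all genes). RCOR3, a CoREST family protein, had 55.0, 47.5 and 51.1 CPM in wild type and 41.6, 38.8 and 42.9 CPM in the knockout, with no overlap (log2 fold change -0.32, edgeR adjusted p = 9.24e-05). MLLT3, a partner of DOT1L, fell by 0.31 on the log2 scale and ZNF644, a partner of EHMT1 and EHMT2, by 0.23. WDR82, of the SETD1 complexes, fell by 0.09, and ATF7IP, the SETDB1 partner, rose by 0.13. ATF7IP lost its call without wild-type replicate 3 (edgeR adjusted p = 0.0626). WDR82 lost its call when any single wild-type library or knockout replicate 2 or 3 was left out (at most 0.191). It also did so with upper-quartile scaling (0.0900) or with replicate number as a block in the model (0.0880).

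Known non-histone substrates of SETD7 formed the last list, and 6 of its 14 tested genes passed (42.9%, beside 23.3% of all tested genes), with a median log2 fold change of 0.00026. This list too was chosen with earlier results of these data known. The 5 that fell were CTNNB1, the beta-catenin gene, HIF1A, YAP1, RB1 and SIRT1, and E2F1 rose. CTNNB1 had 557, 573 and 561 CPM in wild type and 495, 500 and 501 CPM in the knockout, a fall of 0.18 on the log2 scale with no overlap (edgeR adjusted p = 2.89e-05). RB1, HIF1A, SIRT1 and YAP1 had log2 fold changes of -0.19, -0.15, -0.14 and -0.12, and E2F1 had 0.19. SIRT1 lost its call when wild-type replicate 2, wild-type replicate 3, knockout replicate 1 or knockout replicate 2 was left out (edgeR adjusted p up to 0.136). It also did so with upper-quartile scaling (0.0532) or with replicate number as a block in the model (0.0550). E2F1 lost its call without wild-type replicate 1 or 2 (up to 0.104), and RB1 without wild-type replicate 2 or 3 (up to 0.105). Transcript levels do not measure methylation of these proteins.

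At day 0 there was 1 library per genotype and the depth behind the FPKM values is unknown, so the values have no replicate check and no test. All 46 members were at 1 FPKM or more in at least 1 library. FPKM is scaled to transcript length, so levels can be set beside each other. In wild type the order began with DPY30 at 105 FPKM, SETD5 at 79.02, KDM1A at 77.7, KDM5B at 56.1, KDM4A at 49.6 and EHMT1 at 43.6, and it ended with SMYD2 at 1.25. DPY30 and KDM4A share many exonic bases with other genes, so their places are uncertain. SETD7 was at place 42 of 46. The median over the members was 12.7 FPKM, against 9.04 over all genes at or above 1 FPKM.

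**Figure D4:**
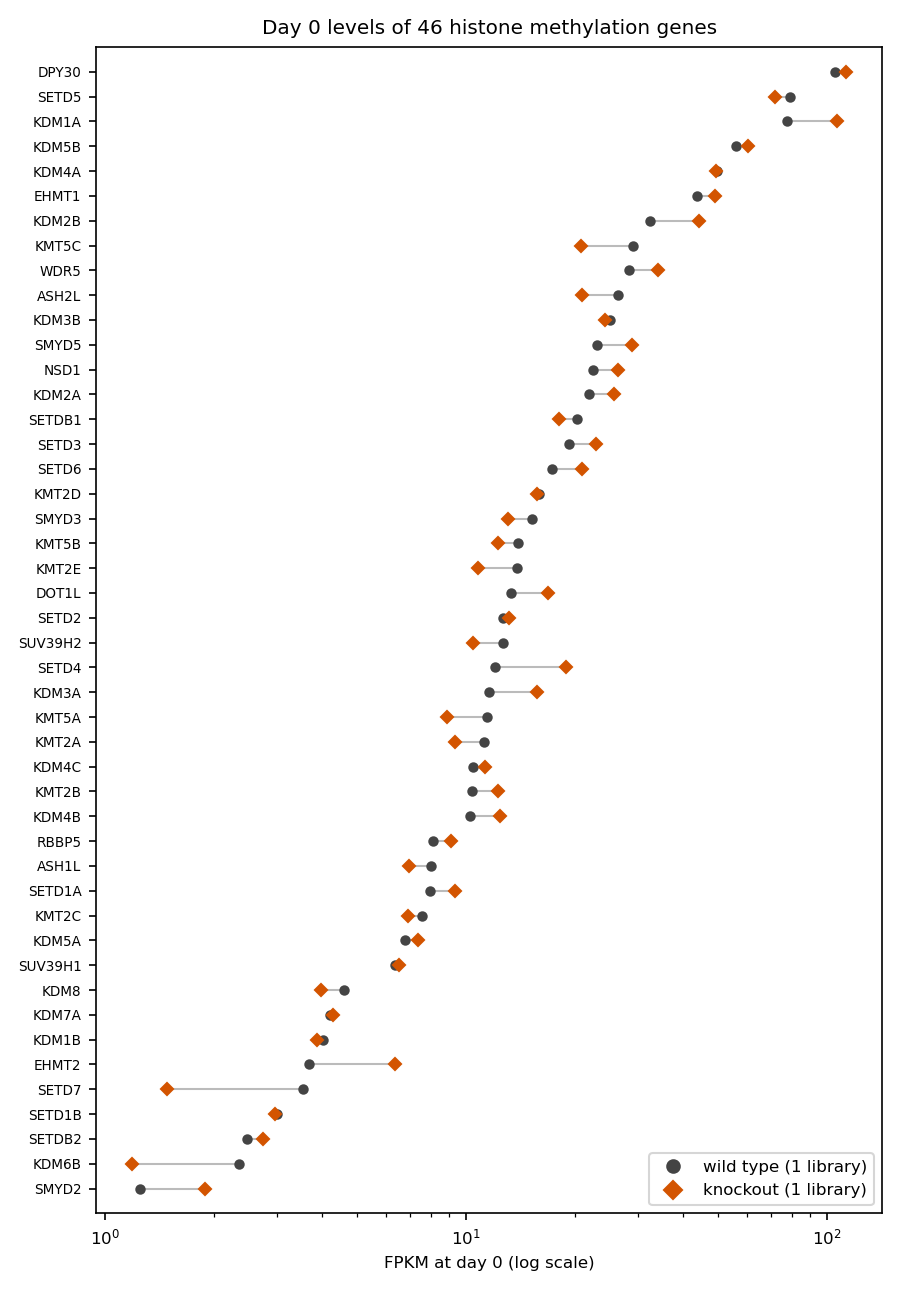
FPKM of the 46 members at day 0 in the wild-type and knockout library (1 each), on a log axis, ordered by the wild-type level. SETD7, EHMT2, KDM6B and SETD4 have the widest gaps, and SETD7 lies at 3.53 and 1.48.

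On the scale of log2(FPKM + 1), which understates differences of low genes, 4 of 46 members (8.70%) differed by at least 0.5 between the libraries, against 18.6% of all genes. SETD7 was at 3.53 FPKM in wild type and 1.48 in the knockout (log2 difference -0.87), or 42.0% of the wild-type level. KDM6B was at 2.34 and 1.18 FPKM (-0.61). SETD4 was at 12.0 and 19.0 FPKM (0.62) and EHMT2 at 3.67 and 6.34 (0.65). With a pseudocount of 5 FPKM in place of 1, none of the 46 members differed by 0.5. A larger pseudocount shrinks the ratio of every gene. The share of all genes at that pseudocount is not given here, so this count is not read as a trait of the members. The 2 members lower by this size compare with 11.8% of all genes and the 2 higher with 6.88%. KDM1A followed at 77.7 and 107 FPKM (0.46), then KMT5C at 28.99 and 20.9 (-0.45), KDM2B at 32.3 and 44.4 (0.45) and KDM3A at 11.6 and 15.7 (0.41). Across both days, SETD7 was lower and SETD4, DOT1L and KDM1A were higher in the knockout, with DOT1L at 13.3 and 16.9 FPKM at day 0.

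Over the 45 members measured on both days, 22 (48.9%) had the same sign of difference at day 0 and day 2, against 43.6% of all genes. Of the 9 members called at day 2, 6 had the same sign, against 38.0% of called genes. Among the 6, SETD7 is the targeted gene, and KDM4A and KDM3B hardly differed at day 0 (log2 ratios -0.0039 and -0.044). Across the 45 members Pearson's r between the day 0 and the day 2 difference was 0.45 and Spearman's rho 0.24. Without SETD7 these were 0.18 and 0.19, so Pearson's r rested largely on that gene while rho changed less. Over all genes r and rho were -0.14 and -0.16. These are descriptions across genes that share 1 library pair at day 0, in a different unit, and genes are not independent replicates.

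**Figure D5:**
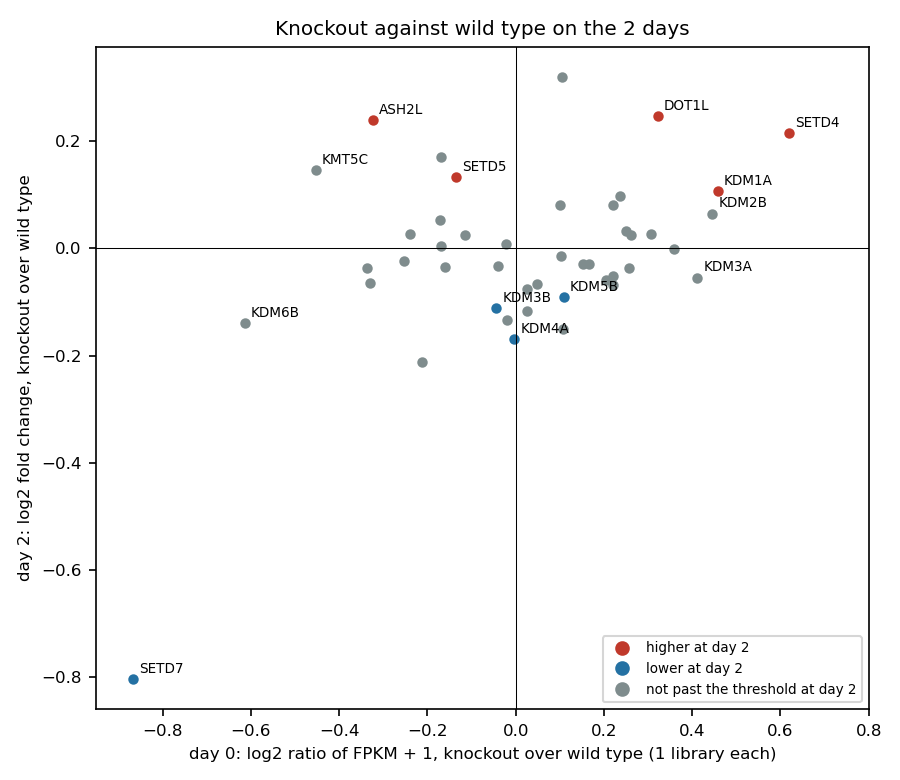
Difference between knockout and wild type at day 0 (x axis, log2 ratio of FPKM + 1, 1 library each) against day 2 (y axis, log2 fold change from edgeR) for 45 members. SETD7 lies alone at -0.87 and -0.80, and the other points scatter around 0 on both axes.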

How the data were processed

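RNA-seq of 8 H1 libraries was used. The day 2 table holds gene counts that the authors deposited, and the day 0 table holds FPKM per the file headers, the deposited unit scaled for transcript length and depth. Per the submitters' processing notes, HISAT2, StringTie and GRCh38 (hg38) were used. Not given in the sources used here are the counter, its strand setting, the annotation, any gene filter and versions. Genotypes, days and replicates came from the labels. At day 2, edgeR 4.0.16 (R 4.3.3) was run on the counts with TMM factors, the filterByExpr filter and the robust quasi-likelihood F test of genotype (2-sided), with Benjamini-Hochberg adjustment over all 11475 genes tested and a threshold of 0.05. CPM use TMM-scaled library totals. At day 0 a log2 ratio of FPKM + 1 was taken, without a test, for genes that reached 1 FPKM in at least 1 library.

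DESeq2 1.42.0, limma-voom (limma 3.58.1), other scalings and filters, GC and length offsets, a replicate block, thinning and each library left out were alternatives, and pseudocounts of 0.1 and 5 FPKM at day 0. The fit was tested on simulated data. Symbols matched GENCODE release 29 for 99.88% of genes, which gave positions and overlaps; promoters came from RefSeq (GRCh38.p14). Python 3.11.15 drew the plots. The members and the gene lists were chosen with earlier results of these data known. Members past the threshold are named with all libraries, non-overlapping members by fold change and the rest by range.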

Additional observations from a re-analysis of the deposited data

Results flagged for a closer look

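3 called members had differences of opposite sign on the 2 days, with the single day 0 pair on one side and all day 2 libraries on the other. ASH2L was lower in the day 0 knockout library (26.4 and 20.9 FPKM, log2 ratio -0.32) and higher at day 2 (0.24). SETD5 was at 79.02 and 71.8 FPKM at day 0 (-0.14), against 0.13 at day 2. KDM5B was at 56.1 and 60.6 FPKM at day 0 (0.11), against -0.09 at day 2. Day 0 has 1 library per genotype and another unit, so the difference between the days was not tested.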

How the results depend on the processing

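Over 45 members and 16 day 2 alternatives, 635 of 720 fold changes kept their direction and side of the threshold, 39 (in 14 members) changed sign without being called in either fit, 20 lost the call and 25 gained it. The remaining 1 changed sign and gained a call. KMT2D was not called with all libraries (0.0081, edgeR adjusted p = 0.966). Without knockout replicate 1 it was called lower (-0.090, edgeR adjusted p = 0.0303), and its value with 1 library left out ran up to 0.060. Of members, 4 to 5 were higher and 1 to 10 lower with 1 library left out; all genes called ranged from 2005 to 2509. Members lower were 2 with upper-quartile scaling, 11 with GC content and length offsets, and 11 when these were combined with a replicate block. With GC offsets, and with block and offsets, 3 other JmjC genes and 10 partners and readers were called. With 1 library left out, partners ran from 3 to 7 and substrates from 3 to 6. At day 0 a pseudocount of 5 FPKM gave 0 members higher and 0 lower, and a minimum of 5 FPKM gave 0 lower. The shares of all genes under these 2 settings are not given here, so these counts cannot be set against a background. The replicate block called 2210 genes and 2 members lower; the correlation of deviations between same-numbered libraries was -0.0728, -0.0721 and -0.0373, so the numbers were not taken to pair the samples. Depth limits the precision of members of low counts, such as SETDB2.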

Other observations

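EHMT2 lies at chr6:31879759-31897687, and other genes near it also had almost no counts at day 2. Of the genes of the MHC region, here from 29555629 to 33457541 on chromosome 6 (GRCh38), 14 of the 54 with at least 1 FPKM at day 0 were below 0.1 CPM at day 2 (25.9%), against 60 of 11024 genes elsewhere (0.544%). TUBB, a tubulin, was at 42.4 and 50.6 FPKM at day 0 and 0.113 and 0.226 CPM at day 2 in wild type and knockout. RPS18, a ribosomal protein gene, was at 593 and 471 FPKM and 0.218 and 0.207 CPM. TUBB and RPS18 lay above 0.1 CPM at day 2, so they are not among the 14, and that count leaves out such low genes. The cause was not tested, so the day 2 counts of EHMT2 cannot be read as its level.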
